A study of Mus musculus with 8 samples.

Results

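The 33 genes described here are 22 that encode enzymes of glycolysis or PFKFB enzymes that regulate it, and 11 that belong to the cellular response to low oxygen. They were taken by gene symbol from the 24976 symbols of a bulk RNA-seq count table, with the enzymes and the hypoxia genes kept apart. All 33 are in the table. The 22 enzymes and 10 of the 11 hypoxia genes passed the filter on low counts and were tested, among 12742 genes in all. Adm, the gene of the vasoactive peptide adrenomedullin, had 0 to 3 counts per library and was not tested. The RNA came from mouse CD8+ T cells, naive at the start, that were stimulated in culture with antibodies to CD3 and CD28 and given IL2. The cells were harvested after 24 or 48 h. One genotype is wild type (WT), from littermates. The other is Cd8Cre NR4a1 flox/flox NR4a2 flox/flox, labelled dKO, in which Cre driven from Cd8 sequences acts on floxed alleles of the nuclear receptor genes Nr4a1 and Nr4a2. Each of the 4 groups has 2 libraries. The sources used here do not say whether these came from separate mice or cultures, so p-values measure only the spread between the libraries, which may be technical.

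Glycolysis splits glucose into pyruvate, and activated T cells are known to run it fast and to turn much of the pyruvate into lactate even when oxygen is plentiful. The transcription factor HIF-1, whose oxygen-sensitive subunit is HIF-1 alpha, is degraded when prolyl hydroxylases of the EGLN family modify that subunit. When it is stable it binds short elements with the core ACGTG or GCGTG and raises genes of glycolysis, of mitochondrial turnover and of matrix synthesis. In T cells, signals from the antigen receptor are also known to raise HIF-1 alpha.

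The promoters of 5 members that passed the test in a comparison below are shown: Bnip3, Egln3 and P4ha1 of the hypoxia genes, and Pfkfb3 and Eno3 of the enzymes. Each line is the RefSeq window (GRCm38.p6, the mm10 build) from 250 bases before a transcript start to 50 after it, 5′ to 3′ on the gene's own strand. For P4ha1 and Pfkfb3 that start lies inside the span given for the gene below. Capitals mark ACGTG or GCGTG on either strand, so that CACGT and CACGC are matches on the other strand. The windows lie at chr7:138909457-138909756 (minus strand) for Bnip3, chr12:54203825-54204124 (minus) for Egln3, chr10:59323046-59323345 (plus) for P4ha1, chr2:11553880-11554179 (minus) for Pfkfb3 and chr11:70656926-70657225 (plus) for Eno3, whose window lies inside the span of the gene.
Bnip3: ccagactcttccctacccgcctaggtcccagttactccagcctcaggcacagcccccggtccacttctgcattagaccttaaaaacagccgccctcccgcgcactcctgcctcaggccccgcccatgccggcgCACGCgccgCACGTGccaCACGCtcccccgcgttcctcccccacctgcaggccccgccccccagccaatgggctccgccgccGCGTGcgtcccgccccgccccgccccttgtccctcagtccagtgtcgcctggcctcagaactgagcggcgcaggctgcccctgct
Egln3: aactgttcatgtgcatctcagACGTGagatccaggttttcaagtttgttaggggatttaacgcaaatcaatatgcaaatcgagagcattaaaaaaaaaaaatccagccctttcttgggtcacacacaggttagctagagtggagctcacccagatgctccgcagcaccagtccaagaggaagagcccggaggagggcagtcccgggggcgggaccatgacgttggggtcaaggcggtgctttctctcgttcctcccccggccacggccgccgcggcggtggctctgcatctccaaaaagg
P4ha1: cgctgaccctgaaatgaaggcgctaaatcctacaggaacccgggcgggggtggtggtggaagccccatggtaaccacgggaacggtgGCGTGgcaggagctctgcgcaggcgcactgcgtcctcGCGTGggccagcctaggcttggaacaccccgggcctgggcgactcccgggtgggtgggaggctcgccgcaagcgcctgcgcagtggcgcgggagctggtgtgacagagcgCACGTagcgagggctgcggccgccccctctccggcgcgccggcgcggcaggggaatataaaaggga
Pfkfb3: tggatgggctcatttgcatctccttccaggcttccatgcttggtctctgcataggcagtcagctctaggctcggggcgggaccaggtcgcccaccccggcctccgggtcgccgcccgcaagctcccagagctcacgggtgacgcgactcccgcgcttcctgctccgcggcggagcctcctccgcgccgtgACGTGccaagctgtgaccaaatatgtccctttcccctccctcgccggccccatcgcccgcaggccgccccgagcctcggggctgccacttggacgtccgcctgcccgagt
Eno3: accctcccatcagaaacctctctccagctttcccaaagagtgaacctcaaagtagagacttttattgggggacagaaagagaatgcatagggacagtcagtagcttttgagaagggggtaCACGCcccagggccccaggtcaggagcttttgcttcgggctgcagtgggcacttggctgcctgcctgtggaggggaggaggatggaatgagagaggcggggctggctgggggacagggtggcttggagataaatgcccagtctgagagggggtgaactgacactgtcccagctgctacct
The Bnip3 window holds 4 marked stretches, 1 of them the palindrome CACGTG, which matches on both strands. The P4ha1 window holds 3, and the windows of Egln3, Pfkfb3 and Eno3 hold 1 each. Pfkfb3 has 2 windows in the table and the first is shown. Windows were found for 31 of the 33 members. Of the first windows, 15 of 22 for the enzymes (68.2%) and 8 of 9 for the hypoxia genes (88.9%) had ACGTG or GCGTG on either strand, against 43.8% of 27025 genes with a window. A match is a description of the letters and says nothing of binding in these cells.

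Total counts ran from 5000952 to 21686236 per library, and 3 counts, the level that a count of 0 allows, were 0.158 to 0.556 counts per 1000000 counts (CPM, scaled by TMM), for counting error only. Markers of CD8 T cells summed to 1371 to 2140.4 CPM (6 of 7 in the table). Myeloid markers summed to 1.26 to 3.38 CPM, with Lyz2, S100a8 and S100a9 at 0 counts, B cell markers to 3.71 to 6.59 CPM and red cell markers to 0.130 to 1.88 CPM. Markers of CD4 and regulatory T cells summed to 18.4 to 25.8 CPM at 24 h and 61.3 to 94.9 CPM at 48 h. Most of that sum was Ctla4, a receptor that activated T cells of either lineage are known to make, with 17.7 and 21.7 CPM and then 91.5 and 58.1 CPM in WT, and 15.6 and 15.6 CPM and then 86.2 and 87.8 CPM under the dKO label. Cd4 had 0 to 2 counts per library, and Foxp3, which defines regulatory T cells, had 2.07 to 3.51 CPM at 24 h and 1.34 to 2.90 CPM at 48 h. The floxed genes were still counted under the dKO label. Nr4a1 stood at 275 to 879 CPM in WT and 505 to 668 CPM in the libraries labelled dKO, and Nr4a2 at 24.5 to 59.7 and 75.3 to 142 CPM. Which exons are floxed is not given in the sources used here, so reads of the genes leave the deletion unchecked, and the libraries are named by their label throughout. Xist ran from 386 to 816 CPM in the WT libraries and from 0.655 to 1.67 CPM in those labelled dKO, so genotype label and sex of the cells cannot be told apart. Of the members, Pgk1 and Pfkfb1 are on the X chromosome. The WT replicates at 48 h differed most from each other, with a median absolute log2 difference over the tested genes of 0.364, against 0.149 to 0.195 within the other groups. Among the enzymes this median was 0.290 in WT at 48 h and 0.120 to 0.202 elsewhere. Among the tested hypoxia genes it was 0.476 in WT at 48 h and 0.103 to 0.307 elsewhere.

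Between 24 and 48 h of activation, the hypoxia genes that passed the test all rose. Bnip3, whose product sits on mitochondria and marks them for autophagy, and Egln3, a prolyl hydroxylase that is both a target of HIF-1 and a brake on it, rose in both genotypes. P4ha1, a catalytic subunit of the collagen prolyl hydroxylase, rose in WT. Of the 10 hypoxia genes tested, 3 rose in WT, where 7.87% of all tested genes rose and 3.5% fell, and 2 rose in the libraries labelled dKO, where 1.76% rose and 1.88% fell. Calls are at a Benjamini-Hochberg adjusted p below 0.05 in edgeR's quasi-likelihood test over all 12742 genes.

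Bnip3 (chromosome 7, 138890836 to 138909506) stood at 7.99 and 8.94 CPM in the WT libraries at 24 h and at 30.3 and 19.5 CPM at 48 h. In the libraries labelled dKO it stood at 6.0 and 8.90 CPM at 24 h and 25.7 and 27.9 CPM at 48 h. All 4 libraries at 48 h lay above all 4 at 24 h, and the WT pair at 48 h was the most spread. The log2 change was 1.53 (SE 0.260, adjusted p = 0.00411) in WT and 1.88 (SE 0.266, adjusted p = 0.00608) under the dKO label. Egln3 (chromosome 12, 54178981 to 54203874) moved from 14.3 and 15.5 CPM to 30.0 and 29.3 CPM in WT and from 22.8 and 14.5 CPM to 38.3 and 40.7 CPM under the dKO label. Again the 4 libraries at 48 h were above the 4 at 24 h. Its log2 change was 0.99 (SE 0.210, adjusted p = 0.0134) in WT and 1.06 (SE 0.206, adjusted p = 0.0251) under the dKO label. P4ha1 (chromosome 10, 59323197 to 59373304) went from 42.9 and 44.3 CPM to 64.9 and 59.0 CPM in WT, a log2 change of 0.50 (SE 0.136, adjusted p = 0.0409). Its values under the dKO label were 38.3 and 40.8 CPM at 24 h and 50.4 and 47.3 CPM at 48 h, also without overlap, and the log2 change of 0.31 (SE 0.138, adjusted p = 0.218) did not pass.

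The other 7 tested hypoxia genes did not pass in either time comparison. Hif1a, the oxygen-sensitive subunit itself, had 94.5 and 103 CPM in WT at 24 h and 108 and 123 CPM at 48 h. Under the dKO label it had 84.3 and 82.4 CPM at 24 h and 76.1 and 84.9 CPM at 48 h, which overlap. Ndrg1, a stress-response gene used as a hypoxia marker, had the lowest log2 change under the dKO label, at -0.99 (SE 0.273, adjusted p = 0.0842). It had 7.97 and 11.1 CPM at 24 h and 5.35 and 4.15 CPM at 48 h, without overlap. This fall passed the threshold in 5 of 15 alternatives. Ankrd37, a small ankyrin-repeat gene induced by HIF-1, ran from 3.51 to 11.5 CPM over the 8 libraries, and Vegfa, the vascular growth factor, from 1.53 to 3.63 CPM. Egln1, the main oxygen sensor of the family, was at 35.8 and 67.5 CPM in the WT libraries at 48 h, the widest gap between replicates among the hypoxia genes in that group apart from Vegfa. Bnip3l, a relative of Bnip3, ran from 28.0 to 47.1 CPM, and Pdk1, whose kinase shuts pyruvate out of the mitochondrial oxidation pathway, from 23.0 to 48.9 CPM. Without regard to the test, 6 of the 10 genes had both WT libraries at 48 h above both at 24 h, and 1 had both below, against 22.7% and 24.4% of all tested genes. Under the dKO label 8 were above and 1 below, against 32.8% and 33.5%. The median log2 change of the 10 was 0.36 in WT and 0.58 under the dKO label, and that of all tested genes was 0.00 and -0.01.

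**Figure D1:**
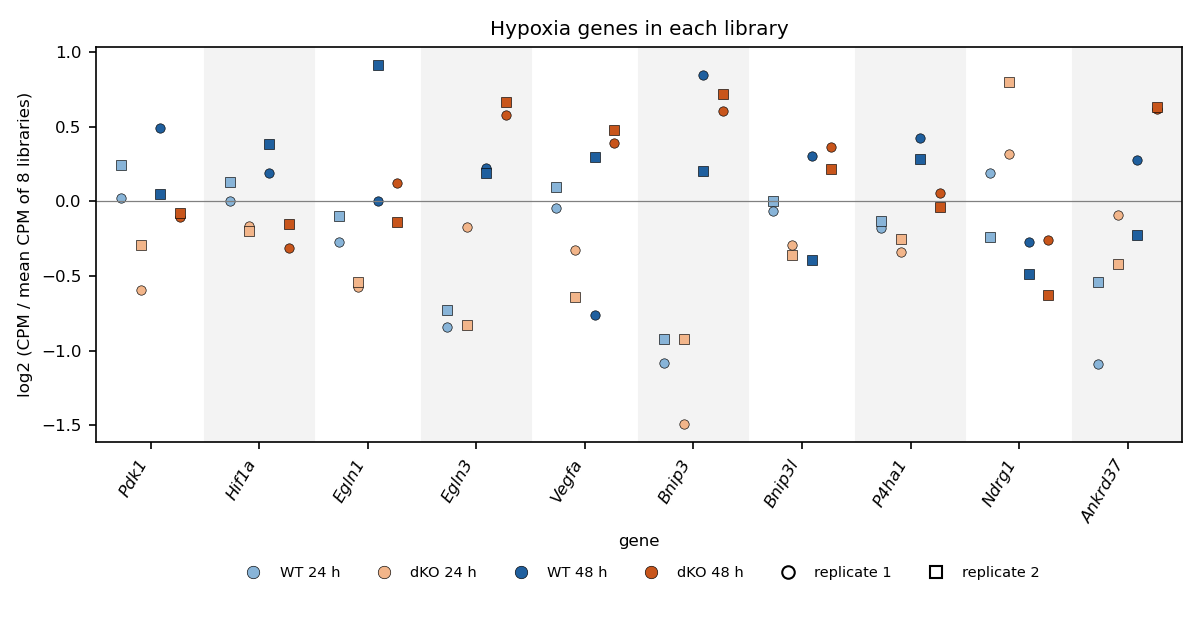
Level of the 10 tested hypoxia genes in each of the 8 libraries, as log2 of CPM over the gene's mean CPM of the 8 libraries (vertical axis), by gene (horizontal axis), with circles for replicate 1 and squares for replicate 2. For Bnip3 and Egln3 the 4 libraries at 48 h lie above the 4 at 24 h, and for Ndrg1 the libraries labelled dKO at 24 h lie highest.

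Leaving out single libraries moved these calls. In WT, Bnip3, Egln3 and P4ha1 all lost their calls without replicate 1 or 2 of WT at 24 h. The count of hypoxia genes called rose without WT 48 h replicate 1. The number of all tested genes called fell and rose in the same fits. P4ha1 passed in 4 of 15 alternatives. Its adjusted p was 0.0635 with a replicate block, and it was 0.0921 to 0.202 when any library of WT at 24 h or of the dKO label was left out. Under the dKO label Bnip3 lost its call without replicate 1 of dKO at 24 h or either replicate at 48 h. Egln3 lost it without any 1 library of that label. The count of hypoxia genes called there rose without either WT library at 48 h, as did that of all tested genes. When the counts were scaled by library size alone, the median log2 change of all tested genes was -0.36 in WT and -0.18 under the dKO label, the share of higher genes among the calls went from 69.2% to 21.6% and from 48.4% to 19.4%, and the hypoxia medians were 0.00 and 0.41.

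Among the 22 enzymes, 4 rose from 24 to 48 h in WT, and 1, Eno3, rose under the dKO label. Eno1 and Eno3 encode enolases, which make phosphoenolpyruvate. Pfkfb3 and Pfkfb4 encode bifunctional enzymes that make and break fructose 2,6-bisphosphate, the activator of phosphofructokinase. The shares of all tested genes that rose are those given above for each comparison, and the 18 and 21 other enzymes did not pass by edgeR.

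Eno1 (chromosome 4, 150236708 to 150248879) had 1047 and 955 CPM in WT at 24 h and 1957 and 1992 CPM at 48 h, with a log2 change of 0.98 (SE 0.182, adjusted p = 0.00681). The libraries labelled dKO had 999 and 1108 CPM and then 1713 and 1552 CPM, and the log2 change of 0.63 (SE 0.181, adjusted p = 0.093) did not pass. No library at 48 h overlapped those at 24 h in either genotype. A near-identical copy, Eno1b, had a count equal to 22.6 to 28.2% of that of Eno1, so reads may be split between them. The sum of both ran from 1224 to 1369 CPM at 24 h and from 1939.8 to 2452 CPM at 48 h. Eno3 (chromosome 11, 70653125 to 70662513), the enolase known from muscle, had 38.1 and 40.6 CPM in WT at 24 h and 73.1 and 67.9 CPM at 48 h. In the libraries labelled dKO Eno3 had 23.5 and 25.0 CPM and 42.8 and 45.1 CPM. Its log2 change was 0.84 (SE 0.136, adjusted p = 0.00318) in WT and 0.86 (SE 0.142, adjusted p = 0.0118) under the dKO label, and the interaction, which compares them, was 0.02 (SE 0.194, adjusted p = 0.97).

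Pfkfb3 (chromosome 2, 11471430 to 11554071) was at 52.6 and 46.9 CPM in WT at 24 h and at 63.2 and 98.6 CPM at 48 h, a log2 change of 0.71 (SE 0.201, adjusted p = 0.0493) that passed narrowly. Under the dKO label it was at 34.4 and 38.8 CPM and 36.8 and 35.4 CPM, with overlapping libraries and a log2 change of -0.01 (SE 0.209, adjusted p = 0.975). Pfkfb4 (chromosome 9, 108988272 to 109032236) is a gene of few counts here, with 3.37 and 1.32 CPM in WT at 24 h and 6.82 and 5.83 CPM at 48 h, a log2 change of 1.40 (SE 0.384, adjusted p = 0.044). The libraries labelled dKO were at 2.29 and 3.34 CPM and 4.01 and 3.24 CPM, and the log2 change was 0.40 (SE 0.409, adjusted p = 0.584).

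The other enzymes did not pass in either time comparison by edgeR. Under the dKO label DESeq2 called Tpi1, Ldha and Pgk1 beside Eno1 and Eno3, of 19 enzymes to which it gave an adjusted p. Of the 11006 genes with an adjusted p there, it called 5.52%. Tpi1, triose phosphate isomerase, had 385 and 339 CPM at 24 h and 575 and 623 CPM at 48 h under the dKO label, where its log2 change was 0.73 (SE 0.211, adjusted p = 0.0956), and 315 and 359 CPM and 490.1 and 327 CPM in WT, where the times overlapped. Ldha, which makes lactate from pyruvate, had 824 and 944 CPM and then 1093 and 1074 CPM in WT, and 869 and 877 CPM and then 1186 and 1284 CPM under the dKO label. Its libraries at 48 h were above those at 24 h in both genotypes, and its log2 changes of 0.29 (SE 0.173, adjusted p = 0.343) and 0.50 (SE 0.173, adjusted p = 0.132) did not pass. Pgk1, phosphoglycerate kinase, ran from 472 and 568 CPM to 835 and 622 CPM in WT and from 547 and 529 CPM to 789 and 838 CPM under the dKO label. Pkm, pyruvate kinase, was at 686 to 956 CPM over all libraries, Aldoa, the main aldolase of most tissues, at 458 to 567 CPM, and Gpi1, glucose phosphate isomerase, at 153 to 207 CPM. Pgam1, phosphoglycerate mutase, was at 411 to 669 CPM. With Gapdh and Eno1, these make up 9 enzymes with more than 100 CPM in every library. The 22 enzymes summed to 6043 to 6689.7 CPM in the libraries at 24 h and to 7383 to 8858 CPM at 48 h. This separation of the times in WT depended on the TMM scaling. As a share of raw counts the enzymes took 0.625 and 0.784% in WT at 24 h and 0.690 and 0.648% at 48 h, which overlap. Under the dKO label the shares were 0.726 and 0.692% at 24 h and 0.831 and 0.864% at 48 h.

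**Figure D2:**
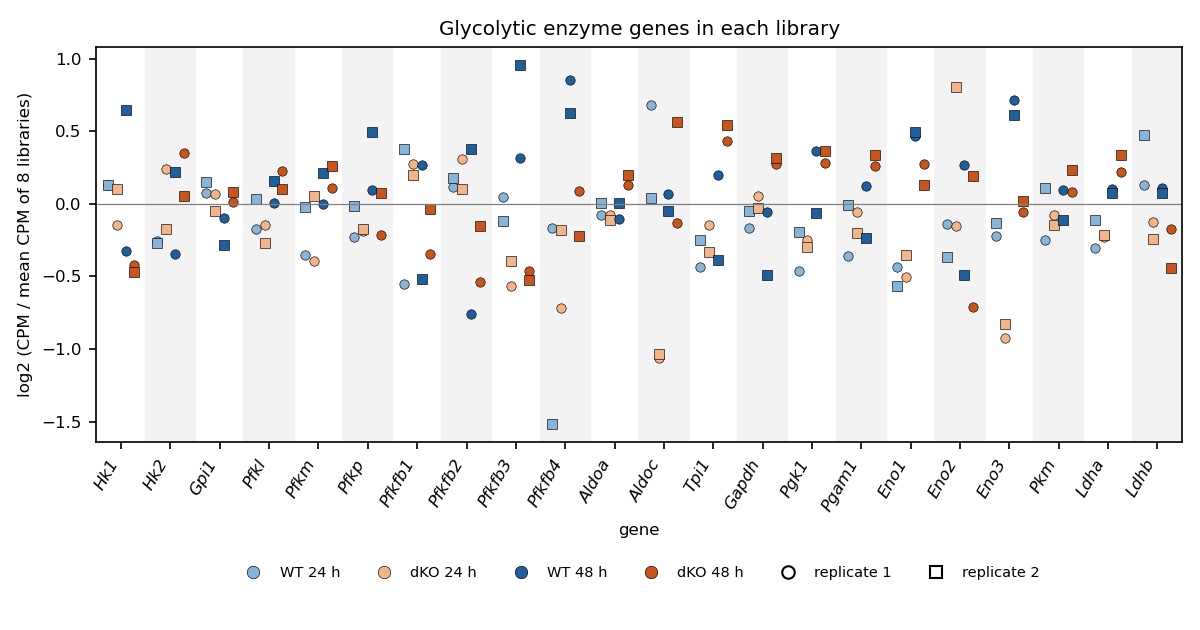
Level of the 22 enzymes in each of the 8 libraries, as log2 of CPM over the gene's mean CPM of the 8 libraries (vertical axis), in the order of the pathway (horizontal axis), with circles for replicate 1 and squares for replicate 2. Eno3 separates the groups by time and genotype label, Pfkfb3 is highest in the WT libraries at 48 h, and Pfkfb4, at 9 to 111 counts per library, has the widest range, with WT 24 h replicate 2 lowest.

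Without regard to the test, 8 of the 22 enzymes had both WT libraries at 48 h above those at 24 h and 2 had both below, against 22.7% and 24.4% of all tested genes. For the dKO label these counts were 12 and 3, against 32.8% and 33.5%. The median log2 change was 0.15 in WT and 0.28 under the dKO label, beside 0.00 and -0.01 for all tested genes. With library size alone it was -0.21 and 0.11, beside -0.36 and -0.18 for all tested genes. The number of enzymes called in WT fell without WT 24 h replicate 2 or any 1 library of the dKO label. It rose without WT 48 h replicate 1. The number of all tested genes called fell and rose in the same fits. Pfkfb3 passed in 3 of 15 alternatives and Pfkfb4 in 7 of 14. With a replicate block Pfkfb3 had an adjusted p of 0.0597. Its adjusted p was 0.0741 to 0.309 without any 1 library other than WT 48 h replicate 1, and its log2 change was 0.35 without WT 48 h replicate 2. That of Pfkfb4 was 0.0733 to 0.288 without WT 24 h replicate 2 or any 1 library of the dKO label. Eno1 kept its call without any 1 library and lost it (adjusted p = 0.142) when only the 4 WT libraries were fitted. Under the dKO label Eno3 lost its call without any 1 of the 4 libraries of that label. The number of enzymes called there rose without any 1 WT library. The number of all tested genes called fell and rose in the same fits. When only the 4 libraries of that label were fitted 11 enzymes were called, in a fit in which 4545 of 12195 genes passed.

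At 48 h, 2 enzymes and 1 hypoxia gene were lower in the libraries labelled dKO than in WT: Pfkfb3, Eno3 and Hif1a. They were 2 of 22 enzymes and 1 of 10 hypoxia genes, shares close to the 8.04% of all tested genes that were lower, while 3.19% of all were higher. Pfkfb3 was at 63.2 and 98.6 CPM in WT and 36.8 and 35.4 CPM under the dKO label, a log2 difference of -1.17 (SE 0.204, adjusted p = 0.0147). The replicates under the dKO label were close to each other, and those of WT were far apart but both higher. Eno3 was at 73.1 and 67.9 CPM against 42.8 and 45.1 CPM, a log2 difference of -0.68 (SE 0.135, adjusted p = 0.0162). Hif1a (chromosome 12, 73901324 to 73947554) was at 108 and 123 CPM against 76.1 and 84.9 CPM, a log2 difference of -0.52 (SE 0.144, adjusted p = 0.0468). Its exons overlap those of an antisense gene, Gm15283, and the strand rule of the counting is not given in the sources used here. Tpi1, Gapdh, Aldoa and Ankrd37 are among 10 members with exons that overlap those of another gene in the table. In bulk RNA, fewer cells that express a gene and less of its RNA per cell cannot be told apart.

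Members on the higher side did not pass at 48 h by edgeR, and DESeq2 called 1, Gapdh, beside the lower Pfkfb3 and Eno3. Of the 12337 genes with an adjusted p there, DESeq2 called 8.93%. Gapdh, which oxidises glyceraldehyde 3-phosphate, had 1459 and 1079 CPM in WT and 1828 and 1885 CPM under the dKO label, a log2 difference of 0.55 (SE 0.203, adjusted p = 0.0997). A processed copy, Gapdh-ps15, had a count of 12.4 to 17.9% of that of Gapdh, so reads may be split there too. Ankrd37 had 9.03 and 6.36 CPM against 11.4 and 11.5 CPM, a log2 difference of 0.63 (SE 0.248, adjusted p = 0.116). P4ha1 was at 64.9 and 59.0 CPM against 50.4 and 47.3 CPM, with -0.34 (SE 0.135, adjusted p = 0.116). Of the 22 enzymes, 6 had both libraries of the dKO label above both of WT and 7 had both below, against 28.3% and 28.6% of all tested genes, and of the 10 hypoxia genes 3 were above and 3 below. The median log2 difference was 0.07 for the enzymes and 0.05 for the hypoxia genes, with -0.03 for all tested genes.

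Other features of the WT libraries at 48 h moved with this comparison. Csrp3, Ropn1, Odf4 and Tnp2, genes known from muscle and testis, summed to 17294 and 16628 CPM there and to 4580 to 7902 CPM in the other 6 libraries. Ribosomal protein genes took 6.36% of counts in WT 48 h replicate 2 and 10.0 to 12.1% in the others. That replicate was also the deepest library, with 21686236 counts against 7018314 in WT 48 h replicate 1. Rn45s, a ribosomal RNA gene, took 4.74% of counts in replicate 2 and 1.20% in replicate 1, and 1.39 to 3.57% in the other groups. The part of these in the results was not tested. Without WT 48 h replicate 1, more members of both lists were called. Without replicate 1 or 2 of dKO at 48 h, Pfkfb3, Eno3 and Hif1a all lost their calls. The number of all tested genes called rose and fell in the same fits. Over 15 alternatives the log2 difference ran from -1.46 to -0.81 for Pfkfb3, -0.73 to -0.50 for Eno3 and -0.63 to -0.34 for Hif1a. Eno3 also missed the threshold without either library of dKO at 24 h (0.0507 and 0.0511), and Hif1a passed in 3 of 15 alternatives, with 0.0573 with a replicate block, 0.101 by DESeq2 and 0.0595 to 0.273 without any 1 library other than WT 48 h replicate 1. With library size alone the median of all tested genes was 0.15, and the share of higher genes among the calls went from 28.4% to 63.9%. The enzymes called were Pfkfb3 (lower), Tpi1 and Gapdh (higher), where 19.9% of all tested genes were called.

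At 24 h no member passed in the genotype comparison. By edgeR 0 of 22 enzymes and 0 of 10 hypoxia genes were called, and by DESeq2 also 0 and 0, while 0.432% of all tested genes were called by edgeR, 0.361% higher and 0.0706% lower. At an unadjusted p below 0.05 there were 3 enzymes and 1 hypoxia gene, against 6.98% of all tested genes. Eno3 came nearest, with 38.1 and 40.6 CPM in WT and 23.5 and 25.0 CPM under the dKO label, a log2 difference of -0.70 (SE 0.142, adjusted p = 0.0913). The WT libraries both lay above those labelled dKO, as they did at 48 h. Ldhb, the lactate dehydrogenase subunit known from heart, had 14.9 and 18.9 CPM against 12.4 and 11.5 CPM, a log2 difference of -0.49 (SE 0.194, adjusted p = 0.603). Aldoc, the aldolase of brain, had 1.82 and 1.17 CPM against 0.546 and 0.556 CPM, with -1.43 (SE 0.532, adjusted p = 0.544), at 3 to 21 counts per library. Pfkfb3 was at 52.6 and 46.9 CPM against 34.4 and 38.8 CPM and a log2 difference of -0.45 (SE 0.207, adjusted p = 0.737).

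Of the hypoxia genes at 24 h, Pdk1 (chromosome 2, 71873215 to 71903858) had 35.3 and 41.2 CPM in WT and 23.0 and 28.4 CPM under the dKO label, a log2 difference of -0.58 (SE 0.193, adjusted p = 0.442). Ndrg1 had 7.29 and 5.42 CPM against 7.97 and 11.1 CPM, with 0.56 (SE 0.264, adjusted p = 0.744), and Ankrd37 3.51 and 5.13 CPM against 6.99 and 5.56 CPM, with 0.56 (SE 0.287, adjusted p = 0.791). Without regard to the test, 6 of the 10 hypoxia genes had both libraries of the dKO label below both of WT and 2 had both above, against 20.6% and 24.3% of all tested genes. For the 22 enzymes these counts were 6 and 2. The medians were -0.23 for the hypoxia genes, -0.01 for the enzymes and 0.01 for all tested genes. Leaving out either WT library at 48 h, neither of which is in the groups compared, brought Pfkfb3, Eno3 and Pdk1 past the threshold, all lower. It also brought more of all tested genes past it.

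Whether the genotype difference itself changed between 24 and 48 h was tested as an interaction. By edgeR 0 of 22 enzymes and 0 of 10 hypoxia genes passed, and 0% of all tested genes did. DESeq2 called 0 and 0. At an unadjusted p below 0.05 there were 2 enzymes and 0 hypoxia genes, against 12.4% of all tested genes. The interaction was -0.73 (SE 0.290, adjusted p = 0.377) for Pfkfb3 on the log2 scale, 1.71 (SE 0.693, adjusted p = 0.378) for Aldoc and -1.0 (SE 0.566, adjusted p = 0.47) for Pfkfb4. Among the hypoxia genes it was 0.61 (SE 0.301, adjusted p = 0.427) for Bnip3l, 0.91 (SE 0.539, adjusted p = 0.482) for Vegfa and -0.60 (SE 0.385, adjusted p = 0.512) for Ndrg1. The median SE of an interaction was 0.28 for the enzymes and 0.34 for the hypoxia genes, so that an interaction of that size lies within its own error. So the time changes that passed in WT and not under the dKO label, those of Eno1, Pfkfb3, Pfkfb4 and P4ha1, are not shown to differ between the genotypes. Without WT 48 h replicate 1, 4 enzymes (Hk1, Pfkfb3, Tpi1 and Gapdh) and 2 hypoxia genes (Egln1 and Bnip3l) were called, in a fit that called 3460 of 13248 genes (26.1%). The comparisons share libraries: each group enters 1 genotype comparison, 1 time comparison and the interaction, and all share 1 estimate of the spread.

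**Figure D3:**
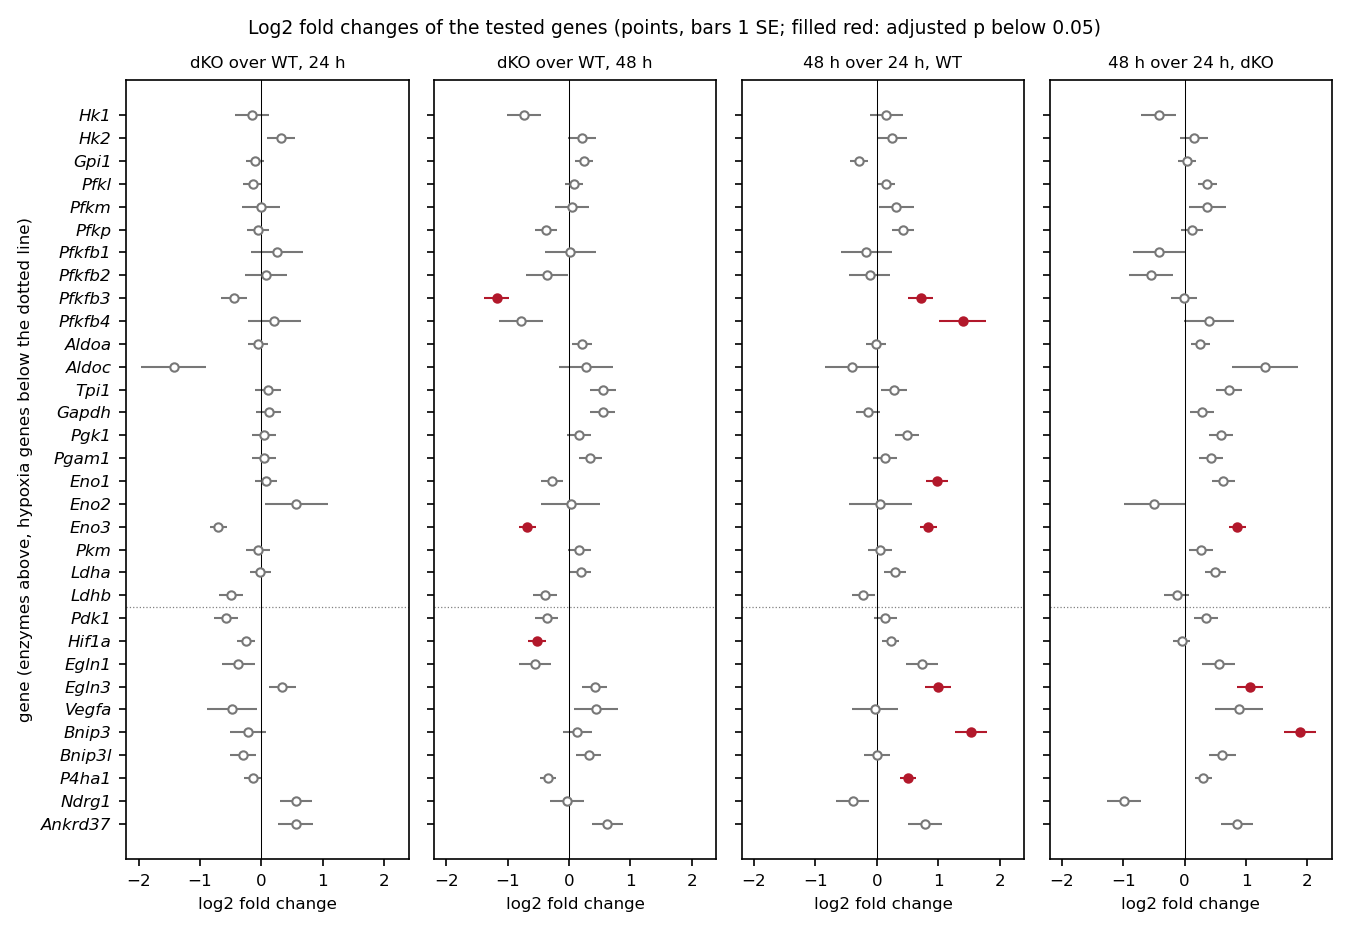
Log2 fold change (horizontal axes) of the 32 tested members (vertical axis, enzymes above the dotted line and hypoxia genes below it), with a panel for each of 4 comparisons, bars of 1 SE, and filled red points for an adjusted p below 0.05. At 24 h 0 members pass between the genotypes, at 48 h 2 enzymes and 1 hypoxia gene are lower, and over time 4 and 3 rise in WT and 1 and 2 under the dKO label.

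Steps of glycolysis that several genes can fill were described by the share of each gene in its family, in counts per kb of annotated exons. This scale assumes that reads cover all exons, which the sources used here do not give. The name of the count table may point to sequencing at 5' ends, and if only such reads were counted the shares per kb do not hold. Hk1 and Hk2 encode hexokinases, which trap glucose as its phosphate, and Hk2 is the form that is known to be inducible. Hk2 made up 55.5 and 55.3% of the hexokinase counts per kb in WT at 24 h, 68.0 and 57.3% under the dKO label at 24 h, 61.7 and 54.7% in WT at 48 h and 73.5 and 70.1% under the dKO label at 48 h. The libraries labelled dKO were higher at each time, without overlap, though neither gene passed the test. Without dividing by length, Hk2 was 46.6 and 46.4% in WT at 24 h, 59.8 and 48.4% under the dKO label at 24 h, 53.0 and 45.8% in WT at 48 h and 66.0 and 62.1% under the dKO label at 48 h. Which of the hexokinases had the larger share thus depended on the scale in 4 libraries. At 48 h the log2 difference was -0.73 (SE 0.278, adjusted p = 0.105) for Hk1 and 0.21 (SE 0.225, adjusted p = 0.533) for Hk2. Hk1 ran from 12.2 to 26.5 CPM and Hk2 from 15.2 to 24.5 CPM over the libraries. Of the PFKFB genes, Pfkfb3 made up 79.0 and 77.4% in WT at 24 h and 69.1 and 71.0% under the dKO label, and 77.0 and 83.8% against 73.5 and 71.6% at 48 h. Both times the WT libraries were the higher pair. Of the phosphofructokinases, which take the committed step, Pfkp made up 46.0 to 58.8% over the libraries, Pfkl 34.4 to 46.0% and Pfkm 6.48 to 8.84%. In CPM, Pfkp ran from 87.2 to 144, Pfkl from 31.2 to 44.0 and Pfkm from 2.73 to 4.28 over the libraries. Pfkfb1 and Pfkfb2 ran from 1.54 to 2.93 CPM and 3.07 to 6.73 CPM, and neither passed in any comparison.

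At the lower steps 1 gene held most of each family. Aldoa made up 99.6 to 99.9% of the aldolase counts per kb, Eno1 88.1 to 93.0% of the enolases and Ldha 96.0 to 98.4% of the lactate dehydrogenases. The enolases here are Eno1 to Eno4, without the copy Eno1b, whose count equalled 22.6 to 28.2% of that of Eno1. If its reads belong to Eno1, the share of Eno1 is given too low and that of Eno3 too high. Eno3 made up 10.1 and 11.6% in WT and 6.76 and 6.50% under the dKO label at 24 h, and 10.3 and 9.51% against 7.16 and 8.23% at 48 h, so that the enolase of muscle was the smaller part in the libraries labelled dKO at both times. Ldhb made up 3.66 and 4.05% and 2.93 and 2.69% at 24 h, and 2.75 and 2.73% and 2.09 and 1.61% at 48 h. Its share was highest in the WT libraries at 24 h and lowest in the libraries labelled dKO at 48 h, and the other pairs lay between. Eno2, the enolase of neurons, was at 1.04 to 2.97 CPM. These shares are given as a description, with no test.

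**Figure D4:**
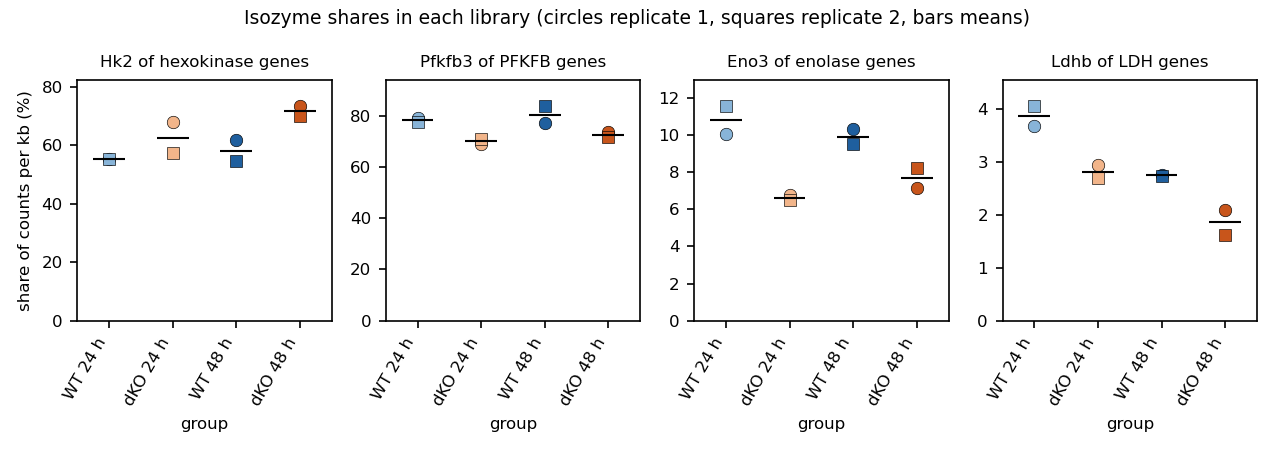
Share of Hk2, Pfkfb3, Eno3 and Ldhb in the counts per kb of their families (vertical axes, in %, each from 0), in the 4 groups (horizontal axes), with circles for replicate 1, squares for replicate 2 and bars for the mean of the 2. Hk2 is higher, and Pfkfb3, Eno3 and Ldhb are lower, in the libraries labelled dKO than in WT at each time.

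The rest of the pathway was read from 3 further lists. Of 20 other glycolysis genes, 10 were tested and 1 passed, near the 7.87% of all tested genes that rose in WT. Under the dKO label 1.76% of all tested genes rose. The gene that passed was Slc16a3, the exporter that carries lactate out of the cell. It rose in both genotypes, from 11.8 and 16.7 CPM to 43.0 and 35.3 CPM in WT, a log2 change of 1.45 (SE 0.208, adjusted p = 0.00258), and from 12.3 and 9.83 CPM to 37.4 and 36.9 CPM under the dKO label, a log2 change of 1.73 (SE 0.213, adjusted p = 0.00317). The glucose importer gene Slc2a1, named here for its role after its values were seen, had 49.9 to 77.0 CPM and did not pass in any comparison. By edgeR 0 of these 10 passed in either genotype comparison, and DESeq2 called 0 in both. By edgeR 0 were at an unadjusted p below 0.05 at 24 h and 1 at 48 h, against 6.98% and 33.1% of all tested genes. Without either library of dKO at 24 h or replicate 2 at 48 h, the adjusted p of Slc16a3 under that label was 0.0509 to 0.0566. Of 13 symbols for partners and regulators of HIF-1 alpha, Eloc and Tceb1 name 1 gene, and so do Elob and Tceb2. Of the 13 symbols 9 were tested, with Eloc and Tceb1 both among them. By edgeR or DESeq2 0 passed in any of the 5 comparisons, with 0 at an unadjusted p below 0.05 in each by edgeR. Of all tested genes 6.98% were below that cutoff for genotype at 24 h, 33.1% at 48 h and 12.4% for the interaction. At the adjusted threshold edgeR called 11.4% of all for time in WT and 3.63% for time under the dKO label. Arnt, the partner subunit, ran from 8.01 to 13.3 CPM and Vhl, which recruits the ligase that degrades HIF-1 alpha, from 7.78 to 13.6 CPM, both picked after their values were seen.

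Of 28 symbols for other targets of hypoxia signalling, of which Ero1l and Ero1a name 1 gene, 20 were tested. By edgeR 5 rose between 24 and 48 h in WT, where 7.87% of all tested genes did, and 1 rose under the dKO label, where 1.76% did. DESeq2 called 2 in WT (Ddit4 and Hmox1) and 1 under the dKO label (Ddit4), beside 8.54% and 5.52% of all genes to which it gave an adjusted p. Ddit4, an inhibitor of the growth kinase mTORC1, rose in both, from 18.1 and 17.9 CPM to 52.7 and 37.3 CPM in WT, a log2 change of 1.31 (SE 0.193, adjusted p = 0.00258), and from 27.0 and 29.3 CPM to 52.9 and 45.9 CPM under the dKO label, with 0.81 (SE 0.188, adjusted p = 0.0479). Hmox1, heme oxygenase, rose in WT from 107 and 71.4 CPM to 229 and 267 CPM, a log2 change of 1.47 (SE 0.203, adjusted p = 0.00258), and Ak4, a mitochondrial adenylate kinase, from 3.79 and 5.28 CPM to 11.3 and 8.67 CPM, with 1.11 (SE 0.263, adjusted p = 0.0235). Under the dKO label Ak4 had 3.27 and 4.45 CPM and then 7.72 and 8.95 CPM, without overlap, and the log2 change of 1.14 (SE 0.279, adjusted p = 0.0563) did not pass. Plod2 and Ndufa4l2 were the remaining genes that rose in WT. At 48 h 2 of the 20 were lower under the dKO label by edgeR, near the 8.04% of all tested genes that were lower, and DESeq2 called 1, Hmox1. Hmox1 had 124 and 108 CPM there, a log2 difference from WT of -1.10 (SE 0.200, adjusted p = 0.0147), and Ndufa4l2, a relative of a respiratory chain subunit, had 1.19 and 0.907 CPM against 2.56 and 2.79 CPM in WT, with -1.36 (SE 0.384, adjusted p = 0.0495). At 24 h 0 of the 20 passed by edgeR, with 3 at an unadjusted p below 0.05, against 6.98% of all tested genes, and DESeq2 called 1, Bhlhe40. Leaving out a library ended some of these calls. Hmox1 at 48 h missed the threshold without replicate 1 or 2 of dKO at 48 h (adjusted p = 0.137 and 0.191), Ndufa4l2 without any 1 library other than WT 48 h replicate 1 (0.0844 to 0.302) and with a replicate block (0.0687), and Ak4 without replicate 1 or 2 of WT at 24 h (0.189 and 0.0784). Ddit4 kept its call in WT without any 1 library and missed it under the dKO label without any 1 library other than those of WT at 48 h (0.0787 to 0.327).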

How the data were processed

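Each library has a whole-number count per gene symbol, deposited by the authors as raw counts, as the values show. The submitters' processing notes name cutadapt 1.18, Bowtie2 2.2.5 and mm10. How reads were counted, and with which annotation and strand rule, is not given. A final nameless entry held each column's total in all 8 libraries (50% of the sum) and was dropped. Genes were tested in R 4.3.3 with edgeR 4.0.16 (quasi-likelihood F test, two-sided, TMM scaling, filterByExpr with a minimum count of 10), in 1 fit of all 8 libraries with a mean per group. P-values were adjusted over 12742 genes (Benjamini-Hochberg) and called below 0.05, with no minimum fold. The fit had a common dispersion of 0.0246 and 4 residual degrees of freedom (prior 5.76). SE was derived from the F statistic and the log2 fold change, and CPM is scaled by TMM factors. Total counts of 5000952 to 21686236 per library set the counting error. Replicates differed beyond sampling noise, so each was counted. The script was tested on simulated data.

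The members and lists were chosen with earlier results of these data known. Log2 values are given for members called and for up to 3 with the smallest p in each list and comparison, with levels in each library, and for up to 3 called genes of each further list. Some genes outside this rule are named for context, chosen after their values were seen. These are Ldha, Hk1 and Hk2, and, in comparisons where they did not rank, Eno3, Pfkfb3, Pfkfb4 and P4ha1. Of the further lists they are Pgls, Taldo1, Ak4 and Pcx in comparisons where they were not called. Csrp3, Ropn1, Odf4 and Tnp2 are outside the rule too. Gene positions and promoters came from RefSeq (GRCm38.p6) and exon lengths from GENCODE M21. Alternatives were DESeq2 1.42.0, other scalings and filters, a fit of only the libraries compared, a replicate block and leaving out each library.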

Additional observations from a re-analysis of the deposited data

How the results depend on the processing

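With 2 libraries a group, the counts of members called moved with the libraries fitted. Of the results of single genes under the alternatives (for genes of the further lists, added after seeing the data), 464 kept their direction and side of the threshold, 122 lost a call, 30 gained one and 0 reversed. Leaving out each library in turn gave, for the enzymes, 0 to 2 calls for genotype at 24 h (0 with all libraries), 0 to 8 for genotype at 48 h (2), 2 to 8 for time in WT (4), 0 to 7 for time under the dKO label (1) and 0 to 4 for the interaction (0). For the hypoxia genes it gave 0 to 1 for genotype at 24 h (0), 0 to 6 at 48 h (1), 0 to 5 for time in WT (3), 0 to 7 under the dKO label (2) and 0 to 2 for the interaction (0). A library left alone in its group was assumed to vary like the other groups. With only the libraries of the 2 groups compared, 1 enzyme was called for genotype at 24 h (Eno3), and 0 enzymes and 0 hypoxia genes at 48 h. For time in WT 0 and 0 were called, and for time under the dKO label 11 and 8. Of all genes in these fits 1.49%, 3.66%, 0.251% and 37.3% were called, in the same order. With no filter on low counts, the enzymes called were 1 for genotype at 24 h, 4 at 48 h and 4 for time under the dKO label. The hypoxia genes called for that last comparison were 5. Of the 22981 genes tested without a filter, 0.896%, 12.9% and 7.18% were called in these comparisons. With library size alone, hypoxia genes called were 0 for genotype at 48 h and 1 for time in WT, beside 19.9% and 26.4% of all tested genes. A mean of at least 50 counts left 2 enzymes called for time in WT, where 13.2% of 9215 genes were called. That filter removed Pfkfb4 from the test, and Pfkfb3 was tested and lost its call. DESeq2 called 0 hypoxia genes for genotype at 48 h and 2 enzymes for time in WT (Eno1 and Eno3). It called 5 enzymes for time under the dKO label (Eno1, Eno3, Tpi1, Ldha and Pgk1). Of all genes with an adjusted p, DESeq2 called 8.93%, 8.54% and 5.52% in these comparisons. Another scaling by RLE size factors changed none of these counts beyond 1.5 times. The cause of these moves was not tested. Replicate numbers did not pair the libraries: differences between replicates 1 and 2 correlated between groups at -0.08 to 0.17 over 12742 genes. With a replicate block 0 hypoxia genes were called for genotype at 48 h, since Hif1a had an adjusted p of 0.0573, and the other counts of members stayed within 1.5 times. The block also ended the calls of Taldo1 (0.0532) and Ndufa4l2 (0.0687) at 48 h and of Pfkfb3 (0.0597) and P4ha1 (0.0635) for time in WT. Over all tested genes, the fit without any 1 library called 13 to 368 genes for genotype at 24 h (55 with all), 15 to 6522 at 48 h (1430), 595 to 4214 for time in WT (1449) and 34 to 3302 under the dKO label (463). Without dividing by exon length, the mean share over the 8 libraries was 53.5% in place of 62.0% for Hk2, 71.1% in place of 53.0% for Pfkp, 80.8% in place of 75.3% for Pfkfb3, 96.8% in place of 90.9% for Eno1 and 98.6% in place of 97.2% for Ldha. Depth limits Adm, Aldoc, Eno2, Pfkfb1, Pfkfb4 and Vegfa most, each with fewer than 12 counts in the library where it was lowest.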

Other observations

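Pathways that branch off glycolysis were read from 2 lists, which were chosen with results of these data known. The pentose phosphate pathway makes NADPH and ribose from glucose 6-phosphate. Of its 7 genes tested, 2 were higher at 48 h in the libraries labelled dKO than in WT, where 3.19% of all tested genes were higher. Pgls, which hydrolyses 6-phosphogluconolactone, had 55.9 and 50.7 CPM in WT and 78.9 and 82.8 CPM under the dKO label, a log2 difference of 0.61 (SE 0.132, adjusted p = 0.0203) by edgeR. Taldo1, transaldolase, had 103 and 78.1 CPM against 138 and 133 CPM, with 0.59 (SE 0.160, adjusted p = 0.044). In each case the libraries of the labels did not overlap, and at 24 h the log2 differences were 0.06 (SE 0.132, adjusted p = 0.955) for Pgls and -0.13 (SE 0.160, adjusted p = 0.92) for Taldo1. The interaction was 0.54 (SE 0.187, adjusted p = 0.369) for Pgls and 0.72 (SE 0.226, adjusted p = 0.369) for Taldo1, so a change of the difference with time was not shown. Without replicate 1 or 2 of dKO at 48 h the adjusted p at 48 h was 0.14 and 0.202 for Pgls and 0.207 and 0.233 for Taldo1. It was 0.0608 for Pgls without either library of dKO at 24 h, and 0.059 to 0.101 for Taldo1 without any 1 other library except WT 48 h replicate 1, and 0.0532 for Taldo1 with a replicate block.

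Of 14 genes that govern the entry of pyruvate into mitochondria, 13 were tested. By edgeR 1 rose over time in WT, near the 7.87% of all tested genes that did, and 0 under the dKO label. Pcx, the carboxylase that turns pyruvate into oxaloacetate, rose in WT from 0.841 and 0.293 CPM at 24 h to 2.39 and 2.89 CPM at 48 h, a log2 change of 2.21 (SE 0.468, adjusted p = 0.0134), and had 0.655 and 0.742 CPM and 1.93 and 2.07 CPM under the dKO label, with 1.52 (SE 0.487, adjusted p = 0.116). It is a gene of few counts here, with an adjusted p of 0.148 without WT 24 h replicate 2, 0.0743 when only the 4 WT libraries were fitted and 0.0859 by DESeq2. By edgeR 0 of the 13 passed in either genotype comparison, with 0 at an unadjusted p below 0.05 at 24 h and 4 at 48 h, against 6.98% and 33.1% of all tested genes, and DESeq2 called 0 in both.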
